A study of Mus musculus with 16 samples.

Results

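Expression of 8 genes that mark the cDC1 lineage or serve its handling of dead-cell antigen was followed on 16 Affymetrix Mouse Gene 1.0 ST arrays of sorted mouse dendritic cells (DCs). The genes were Xcr1, Clec9a, Ly75, Cadm1, Cd8a, Wdfy4, Rab7b and Naaa. They were chosen by function, but with earlier results of these data known. All 8 of 8 had a probe set with a single gene symbol among the 19938 genes tested. Wdfy4 had 2 probe sets, and the one with the higher mean signal was used. Probe sets differ in how brightly they hybridize, so signals were compared between samples and not between genes.

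The cells were CD24+ and CD172a+ (Sirpa+) DCs from mice that lacked the MHC class II transactivator Ciita (Ciita -/-, called KO) or had both copies (Ciita +/+, called WT). All mice were of the B6 strain and carried a GFP allele of Zbtb46 beside a normal one (Zbtb46 GFP/+) that marks DCs, which all groups share. Spleen cells were taken at homeostasis. Cultured cells came from whole bone marrow (BM) kept for 9 days in medium with 5% Flt3l. They were then activated, first with gamma interferon and after that for 4 hours with LPS. The labels disagree on the interferon step, which lasted 16 hours in one place and 22 hours in another. The 8 groups (2 tissues, 2 subsets, 2 genotypes) had 2 arrays each, from 8 mice that each gave a CD24+ and a CD172a+ array. No array of unactivated culture is part of the series as used here, so growth in culture, BM origin and activation cannot be told apart.

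Conventional DCs fall into a cDC1 and a cDC2 branch. In mouse spleen cDC1 are known for taking up dying cells and presenting their antigens on MHC class I to CD8 T cells, which is called cross-presentation. They carry receptors for chemokine, dead cells and adhesion, and they are usually sorted as CD24+ CD172a- cells, while cDC2 are sorted as CD172a+. When DCs mature after a microbial signal, they lower uptake, raise costimulation and change their surface receptors.

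The sequence just before the start of 4 of the genes is shown because these genes represent the patterns described below: Xcr1 and Clec9a kept a large subset difference in culture, Wdfy4 gained one and Cd8a lost most of it. Each line gives the 250 bases upstream of the RefSeq transcription start (build GRCm38.p6), 5′ to 3′ in the direction of the gene. Capitals mark matches on either strand to the motifs searched, which were AP-1 (TGANTCA), PU.1 (GGAAGT), Runx (TGTGGT) and 4 spaced motifs. The spaced motifs were a composite Ets-IRF element (GGAA, any 2 bases, GAAA), an interferon response element (GAAA, any 2 bases, GAAA), an IRF core (GAAA, any 2 bases, GA) and NF-kB (GGG, any 2 bases, TTTCC). Motifs can overlap where they share letters, as the IRF core and the interferon response element do.
Xcr1, chr9:123862030-123862279, minus strand: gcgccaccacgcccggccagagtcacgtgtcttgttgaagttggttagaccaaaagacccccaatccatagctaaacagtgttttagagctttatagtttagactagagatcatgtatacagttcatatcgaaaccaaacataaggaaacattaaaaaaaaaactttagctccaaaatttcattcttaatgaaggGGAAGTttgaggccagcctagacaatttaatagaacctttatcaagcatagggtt
Clec9a, chr6:129408612-129408861, plus strand: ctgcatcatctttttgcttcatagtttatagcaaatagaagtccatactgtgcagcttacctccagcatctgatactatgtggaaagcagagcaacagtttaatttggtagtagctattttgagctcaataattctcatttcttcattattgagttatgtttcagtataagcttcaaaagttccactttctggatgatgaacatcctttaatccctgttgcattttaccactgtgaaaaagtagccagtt
Wdfy4, chr14:33185067-33185316, minus strand: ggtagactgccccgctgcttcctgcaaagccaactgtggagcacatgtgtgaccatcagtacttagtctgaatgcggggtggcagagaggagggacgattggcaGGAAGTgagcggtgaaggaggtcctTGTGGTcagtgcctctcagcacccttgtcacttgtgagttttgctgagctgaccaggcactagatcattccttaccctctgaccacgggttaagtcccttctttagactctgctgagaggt
Cd8a, chr6:71373177-71373426, plus strand: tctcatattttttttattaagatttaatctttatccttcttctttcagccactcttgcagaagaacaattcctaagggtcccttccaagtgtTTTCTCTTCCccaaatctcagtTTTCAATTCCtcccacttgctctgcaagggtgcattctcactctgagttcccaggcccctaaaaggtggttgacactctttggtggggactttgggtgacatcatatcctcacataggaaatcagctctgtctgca
Among the 6 members listed in the promoter table (these 4 with Ly75 and Naaa), the composite Ets-IRF letters stood in the Cd8a window only. They occurred there as TTTCTCTTCC and TTTCAATTCC, both on the opposite strand, at 158 to 149 and 136 to 127 bases upstream of the start, and 2.30% of 32851 promoters held such a match. The PU.1 letters stood in the windows of Xcr1, Wdfy4 and Ly75 and in 19.7% of all promoters. The Runx letters stood in those of Wdfy4 and Ly75 and in 14.0% of all. The Clec9a and Naaa windows held no match, and none of the 6 held a match to AP-1 (6.75% of promoters), the interferon response element (2.98%), the IRF core (18.1%) or NF-kB (1.41%). These are letter matches and not measured binding sites.

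The sorts were first checked against their own genes. Sirpa, which encodes CD172a, averaged 8.75 ± 0.22 (SD, n = 4) in spleen CD24+ cells and lay between 12.58 and 12.70 in spleen CD172a+ cells. In culture it averaged 8.59 ± 0.39 (SD, n = 4) in CD24+ and lay between 11.07 and 11.37 in CD172a+ cells. Cd24a, which encodes CD24, separated the subsets in spleen (12.67 to 12.71 against 10.44 to 10.78), but in culture the CD24+ arrays (12.999 to 13.156) and CD172a+ arrays (12.98 to 13.05) overlapped. The cultured subsets were therefore apart in Sirpa and not in Cd24a transcript. Ciita lay between 10.90 and 11.28 on spleen KO arrays against 10.97 to 11.40 on WT. In culture it lay between 7.17 and 9.70 in KO against 10.15 to 10.85 in WT. The spleen KO arrays thus overlapped with WT, and since the deleted stretch of Ciita is not named in the labels, this probe set checks the spleen genotype labels no further.

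The second cultured KO mouse stood apart. Its CD24+ array was the lowest of the 4 cultured CD24+ arrays for 7 of the 8 members and the highest for Ly75, and its Sirpa signal was 9.17 where the other 3 lay between 8.36 and 8.43. The mean of the other cDC1 genes was 9.78 on it against 10.06 on the rest, that of the maturation list was 12.45 against 12.01 to 12.19, and that of the T cell list 6.53 against 6.34. What these shifts contribute was not tested, and values without this mouse are given at the end.

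All 8 genes were higher in CD24+ than in CD172a+ cells in spleen, and all 8 were higher again in activated culture. The medians of the 8 differences were 3.92 on the log2 scale in spleen and 2.94 in culture, against 0.03 and -0.03 over all genes tested. A gene was called at a Benjamini-Hochberg adjusted p under 0.05 in limma, over the 19938 genes. By that measure 15.6% of genes were called higher and 13.4% lower in CD24+ cells in spleen, 11.2% higher and 13.7% lower in culture, and 4.08% (813 genes) higher in both. Of the 3113 genes called higher in spleen, 26.1% were also called higher in culture, 59.6% were not called there and 14.3% were called lower. With all arrays, a change of the difference was called for every member. The difference was smaller in culture for 6 of 8 and larger for 2 of 8. Over all genes, 15.7% were called with a lower and 12.5% with a higher value in culture than in spleen. In both tissues each of the 4 mice had the higher value in its CD24+ array for each of the 8 genes. The CD24+ and CD172a+ arrays overlapped for 1 gene in 1 tissue, Cd8a in culture. How many of all genes meet either description was not counted, so neither sets the members apart from other genes.

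**Figure D1:**
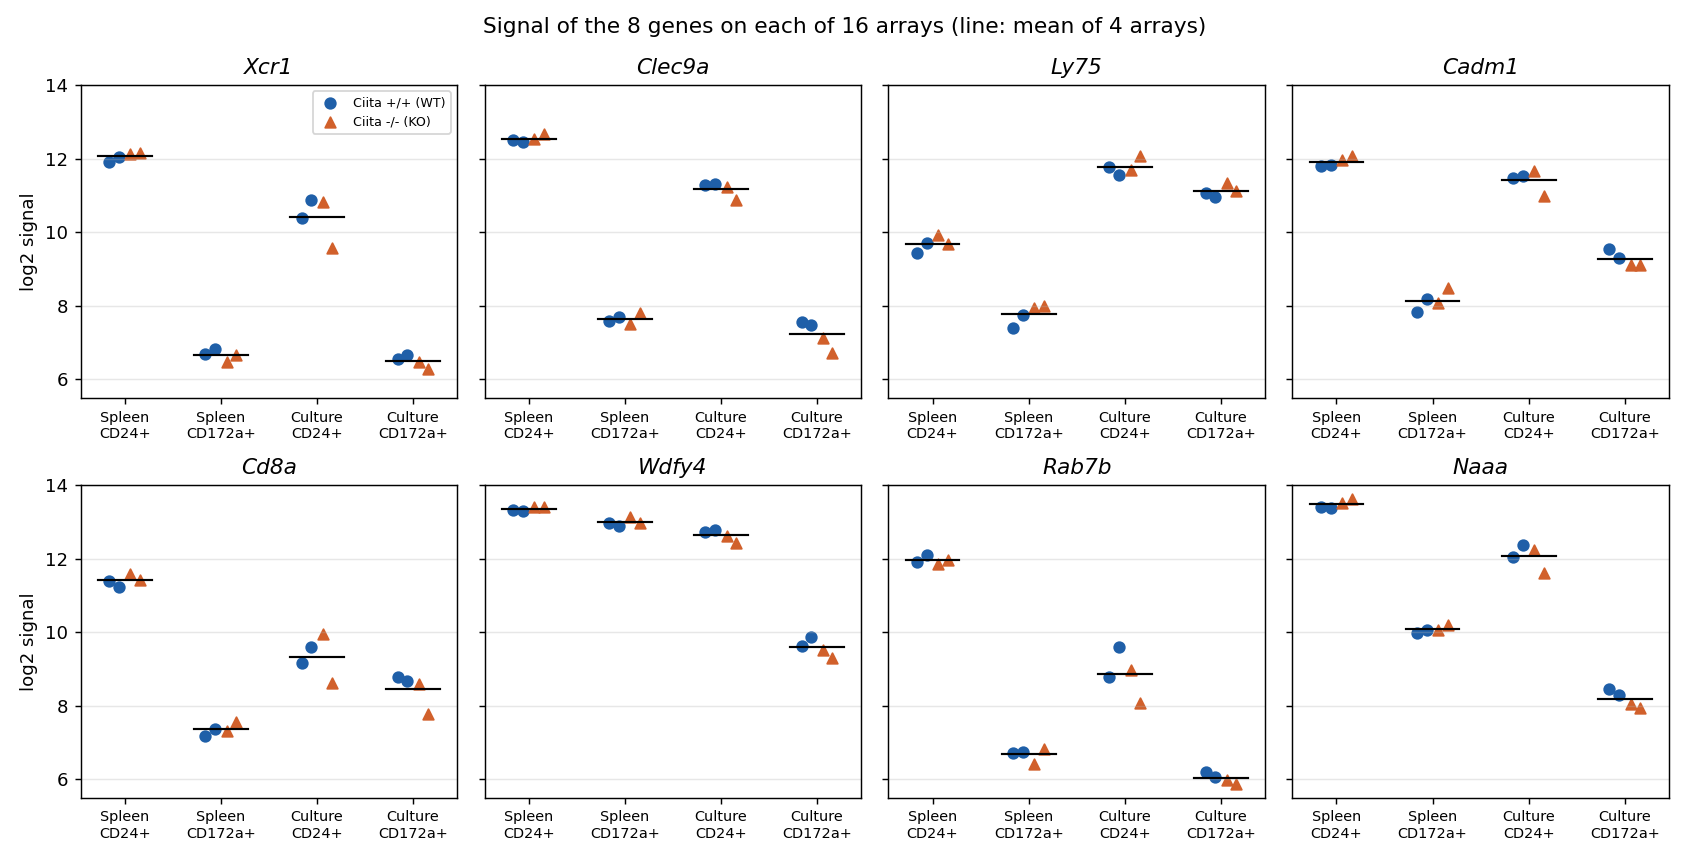
Signal of each gene (y axis, log2 signal) on the 16 arrays, in spleen and culture CD24+ and CD172a+ cells (x axis); circles are WT, triangles KO, and the line is the mean of 4 arrays. Subsets stand apart in every panel and tissue except Cd8a in culture, and Wdfy4 is low in the cultured CD172a+ arrays alone (9.30 to 9.88).

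Xcr1 encodes the receptor for the chemokine XCL1, through which cDC1 meet activated CD8 T cells and NK cells. In spleen CD24+ cells its signal was 11.92 and 12.05 in WT and 12.14 and 12.17 in KO, and in spleen CD172a+ cells it was 6.68 and 6.82 in WT and 6.48 and 6.66 in KO. Cultured CD24+ cells gave 10.41 and 10.87 in WT and 10.84 and 9.58 in KO, and cultured CD172a+ cells gave 6.56 and 6.66 in WT and 6.48 and 6.27 in KO. The 8 CD172a+ arrays formed one low band in both tissues, and the cultured CD24+ arrays lay below the splenic ones, the second KO array lowest. The difference between subsets was 5.41 ± 0.20 (SE) in spleen, or 42.5-fold in signal (adjusted p = 1.049e-09), the third highest of the 19938 genes. In culture it was 3.93 ± 0.20, or 15.2-fold (adjusted p = 9.396e-08), the fifth highest. It was smaller in culture by 1.48 ± 0.29 on the log2 scale (change -1.48, adjusted p = 0.002104). All 8 CD172a+ arrays of Xcr1 lay below 7.15, the median of all values on the 16 arrays. The deposited values carry no detection call, so the CD172a+ signal is not shown to be above background, and the folds and ranks are those of the signals, which may understate the difference in transcript. With WT arrays alone that change was -1.21 and not called (adjusted p = 0.06703, the highest of 26 alternatives, whose lowest was 1.308e-06).

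Clec9a encodes DNGR-1, a C-type lectin that binds actin filaments exposed by dead cells and directs their antigens to cross-presentation. Spleen CD24+ cells read 12.52 and 12.46 in WT and 12.55 and 12.68 in KO, against 7.58 and 7.70 in WT and 7.50 and 7.81 in KO CD172a+ cells. Cultured CD24+ cells read 11.29 and 11.33 in WT and 11.23 and 10.88 in KO, against 7.57 and 7.49 in WT and 7.13 and 6.72 in KO CD172a+ cells. The subsets stayed more than 3 log2 units apart in each of the 8 mice, whose smallest difference was 3.73, in culture. The difference was 4.90 ± 0.10 (29.9-fold, adjusted p = 7.841e-12) in spleen and 3.96 ± 0.10 (15.5-fold, adjusted p = 3.266e-10) in culture, a change of -0.95 ± 0.15 (adjusted p = 3.617e-04). Its rank among all genes was 8 in spleen and 4 in culture, and 2 of the 4 cultured CD172a+ arrays lay below 7.15. That cut pools both tissues, and the medians of the cultured arrays over all probe sets were lower (6.85 to 6.92). The array at 7.13 lay above those medians and the one at 6.72 below.

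Ly75 encodes DEC-205, an endocytic receptor that carries bound antigen to late compartments. Spleen CD24+ cells read 9.43 and 9.72 in WT and 9.93 and 9.69 in KO, against 7.39 and 7.76 in WT and 7.94 and 7.99 in KO CD172a+ cells. In culture CD24+ cells read 11.77 and 11.56 in WT and 11.70 and 12.08 in KO, and CD172a+ cells 11.08 and 10.97 in WT and 11.33 and 11.14 in KO. Every cultured array was above every splenic one, in both subsets, and in culture the lowest CD24+ array was 0.23 above the highest CD172a+ array. The difference was 1.92 ± 0.11 (3.79-fold, adjusted p = 5.293e-08) in spleen and 0.65 ± 0.11 (1.57-fold, adjusted p = 9.079e-04) in culture, a change of -1.28 ± 0.16 (adjusted p = 7.056e-05). Ly75 was thus called in both tissues while its place among the differences of all genes went from 123 to 875.

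Cadm1 encodes an adhesion molecule of the immunoglobulin family whose partner Crtam is found on activated T and NK cells. Its signal in spleen CD24+ cells was 11.81 and 11.84 in WT and 11.96 and 12.07 in KO, against 7.84 and 8.18 in WT and 8.07 and 8.48 in KO CD172a+ cells. Cultured CD24+ cells read 11.48 and 11.53 in WT and 11.68 and 10.99 in KO, against 9.55 and 9.30 in WT and 9.11 and 9.11 in KO CD172a+ cells. The cultured CD172a+ arrays all lay above the splenic CD172a+ arrays. The difference was 3.78 ± 0.14 (13.7-fold, adjusted p = 7.663e-10) in spleen and 2.15 ± 0.14 (4.45-fold, adjusted p = 4.758e-07) in culture, a change of -1.62 ± 0.20 (adjusted p = 5.880e-05).

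Cd8a encodes the alpha chain of CD8, which mouse cDC1 of lymphoid organs carry as a homodimer. Spleen CD24+ cells read 11.40 and 11.24 in WT and 11.58 and 11.41 in KO, against 7.18 and 7.36 in WT and 7.30 and 7.56 in KO CD172a+ cells. Cultured CD24+ cells read 9.17 and 9.59 in WT and 9.95 and 8.61 in KO, against 8.78 and 8.68 in WT and 8.59 and 7.78 in KO CD172a+ cells. The cultured subsets overlapped, since the lowest CD24+ array was 0.17 below the highest CD172a+ array (a gap of -0.17), although within each mouse the CD24+ array was higher, by 0.39 to 1.36. The difference was 4.06 ± 0.24 (16.6-fold, adjusted p = 7.869e-08) in spleen and 0.87 ± 0.24 (1.83-fold, adjusted p = 0.01948) in culture. The change of -3.18 ± 0.35 (adjusted p = 2.559e-05) was the largest of the 8 members in either direction, and the place of Cd8a among all genes went from 15 to 546.

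The culture call of Cd8a depended on single arrays. It was lost without the second WT CD24+ array (0.77, adjusted p = 0.08089), without the second WT CD172a+ array (0.85, adjusted p = 0.05861) and without the second KO CD172a+ array (0.67, adjusted p = 0.08934). It was also not called with WT alone (0.65, adjusted p = 0.2726), with KO alone (1.10, adjusted p = 0.05743) or with the culture arrays fitted alone (adjusted p = 0.101), within a range of 5.772e-05 to 0.2726 over 27 alternatives. Cd8b1, the beta chain gene, was higher in CD24+ cells by 1.24 ± 0.09 (adjusted p = 4.37e-07) in spleen and by 0.72 ± 0.09 (adjusted p = 9.25e-05) in culture.

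Since T cells and plasmacytoid DCs can also express Cd8a, their marker lists were read beside it. Of 10 T cell genes measured, 3 were higher and 1 lower in spleen CD24+ cells, and their mean signal was 7.38 to 7.64 on spleen CD24+ arrays against 7.29 to 7.38 on CD172a+ arrays. In culture, Cd8b1 was the 1 T cell gene called, and 0 of 10 averaged above 7.15, the median of all values, in any group. Cultured arrays had lower medians of their own (6.85 to 6.92 over all probe sets). The highest T cell gene of each cultured group, Thy1 or Cd3e (7.09 to 7.13), lay above those. Of 8 plasmacytoid DC genes, 5 were higher in spleen CD24+ cells, led by Ccr9 (2.35 ± 0.06, adjusted p = 4.71e-11), and 2 were lower. In cultured CD24+ cells 2 were higher, Pacsin1 (1.21) and Ccr9 (0.72), and 2 lower, Tcf4 (-1.24) and Spib (-0.97). The part of other cells in the Cd8a signal was not tested. In bulk RNA, fewer cells of a kind and less transcript per cell cannot be told apart.

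Wdfy4 encodes a BEACH-domain protein that cDC1 require to cross-present cell-associated antigen. The signal in spleen CD24+ cells was 13.31 and 13.31 in WT and 13.40 and 13.40 in KO, and spleen CD172a+ cells were almost as high, with 12.96 and 12.89 in WT and 13.15 and 12.96 in KO. Cultured CD24+ cells read 12.73 and 12.79 in WT and 12.61 and 12.43 in KO, against 9.63 and 9.88 in WT and 9.53 and 9.30 in KO CD172a+ cells. The splenic subsets were separated by a gap of 0.16, and the cultured CD172a+ cells were far below the other 12 arrays. The difference was 0.36 ± 0.07 (1.29-fold, adjusted p = 0.002336) in spleen and 3.05 ± 0.07 (8.31-fold, adjusted p = 2.506e-10) in culture, and the increase of 2.69 ± 0.10 (adjusted p = 4.007e-09) was present in every alternative run (2.47 to 2.83). Its place among all genes went from 1733 to 21. The spleen values lie near the top of the array range, which reached 14.55. The second probe set gave 0.33 ± 0.16 in spleen with overlapping arrays (adjusted p = 0.1841) and 3.29 ± 0.16 in culture (adjusted p = 1.910e-07). The p-values of the second probe set were adjusted over 30177 probe sets, and its splenic difference lay above 0 in each of 4 mice (0.11 to 0.56). The small splenic difference was thus of like size with both probe sets but called with 1 of 2. The large cultured difference was called with both.

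Rab7b encodes a small GTPase of late endosomes that takes part in transport toward the Golgi. Its spleen CD24+ arrays read 11.90 and 12.11 in WT and 11.87 and 11.95 in KO, against 6.70 and 6.75 in WT and 6.42 and 6.82 in KO CD172a+ cells. Cultured CD24+ cells read 8.79 and 9.60 in WT and 8.96 and 8.07 in KO, against 6.19 and 6.05 in WT and 5.97 and 5.88 in KO CD172a+ cells. The cultured CD24+ arrays lay between the splenic CD24+ arrays and all CD172a+ arrays. The difference was 5.28 ± 0.19 (38.9-fold, adjusted p = 7.108e-10) in spleen, the fifth highest of all genes, and 2.83 ± 0.19 (7.12-fold, adjusted p = 7.175e-07) in culture, a change of -2.45 ± 0.27 (adjusted p = 2.901e-05). As for Xcr1, all 8 CD172a+ arrays lay below 7.15 (6.42 to 6.82 in spleen, 5.88 to 6.19 in culture), so these folds, the rank and the change are read against a signal not shown to be above background.

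Naaa encodes a lysosomal amidase that hydrolyses N-acylethanolamine lipids and is abundant in cDC1. Its spleen CD24+ arrays read 13.42 and 13.38 in WT and 13.52 and 13.63 in KO, against 9.98 and 10.05 in WT and 10.07 and 10.20 in KO CD172a+ cells. Cultured CD24+ cells read 12.05 and 12.38 in WT and 12.23 and 11.61 in KO, against 8.45 and 8.29 in WT and 8.03 and 7.93 in KO CD172a+ cells. Both subsets were lower in culture, and the within-mouse differences lay between 3.60 and 4.20 there against 3.32 and 3.45 in spleen. The difference was 3.41 ± 0.12 (10.6-fold, adjusted p = 3.838e-10) in spleen and 3.89 ± 0.12 (14.8-fold, adjusted p = 8.215e-10) in culture. Its increase of 0.48 ± 0.16 (95% interval 0.12 to 0.84, adjusted p = 0.04588) was the least firm of the 8 changes. It was -0.02 after quantile normalization over the 16 arrays (adjusted p = 0.9455), and it was lost on omission of any 1 of 13 of the 16 arrays, with an adjusted p of up to 0.1111. Over its 26 alternatives the adjusted p ranged from 7.343e-04 to 0.9455.

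**Figure D2:**
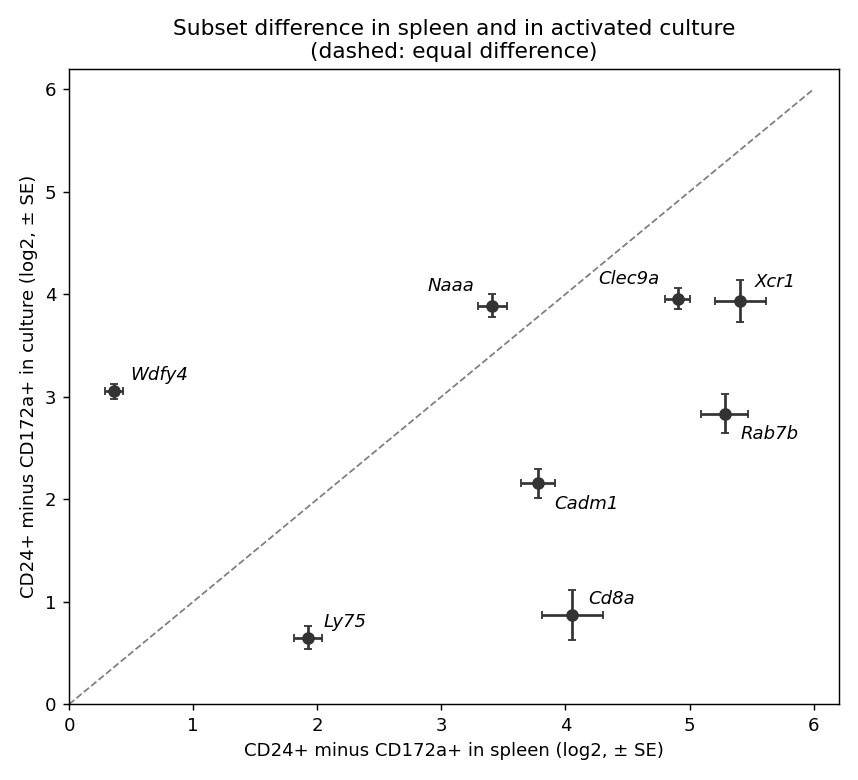
Difference between CD24+ and CD172a+ cells (log2, ± SE from limma over 16 arrays) in spleen (x axis) and in activated culture (y axis) for each gene; the dashed line marks equal differences. Wdfy4 and Naaa lie above the line, the other 6 genes below it, and Cd8a is farthest below (4.06 in spleen, 0.87 in culture).

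Culture minus spleen within each subset shows which cells moved. Spleen and culture arrays had different medians (7.29 to 7.32 and 6.85 to 6.92), so these values are given relative to the median gene, which moved by -0.34 in CD24+ and -0.28 in CD172a+ cells. In CD24+ cells 6 members were lower in culture, 1 was higher and 1 was not called, where 37.1% of all genes were called lower and 35.9% higher. In CD172a+ cells 2 members were lower, 3 higher and 3 not called, where 37.7% of all genes were lower and 36.1% higher. The shares over all genes are so large that a call alone distinguishes a member little. The median over the 8 members was -1.06 in CD24+ and -0.02 in CD172a+ cells, on a scale where the median gene is at 0.

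For Xcr1 and Rab7b the CD24+ cells were lower in culture, while the CD172a+ cells showed no called change with all arrays. Xcr1 was -1.31 ± 0.20 in CD24+ cells (adjusted p = 9.268e-05) and 0.11 ± 0.20 in CD172a+ cells (adjusted p = 0.6322), and Rab7b was -2.77 ± 0.19 (adjusted p = 5.800e-08) and -0.38 ± 0.19 (adjusted p = 0.09415). The CD172a+ value of Rab7b was called on omission of either cultured KO CD24+ array, at the same size (adjusted p = 0.02974), and its adjusted p over 25 alternatives reached 0.3236. Clec9a was -1.03 ± 0.10 in CD24+ cells (adjusted p = 1.702e-06) and -0.14 ± 0.10 in CD172a+ cells (adjusted p = 0.2244). The latter ran from -0.46 to 0.18 over 25 alternatives (adjusted p 0.01481 to 0.9758). It was called lower with KO arrays alone (-0.46) and without the first cultured KO CD172a+ array (-0.25), and lay above 0 with WT arrays alone (0.18) and under quantile normalization (0.0037). For Cadm1 it was the CD172a+ cells that were higher, by 1.40 ± 0.14 (adjusted p = 1.449e-06). Cadm1 in CD24+ cells was at -0.16 ± 0.14 (adjusted p = 0.3029), a value that was called under quantile normalization (-0.57, adjusted p = 0.001101) and without the first cultured KO CD24+ array (-0.34, adjusted p = 0.01217). Its adjusted p over 25 alternatives ran from 0.001101 to 0.9423.

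Cd8a moved in both subsets, in opposite directions. It was -1.74 ± 0.24 in CD24+ cells (adjusted p = 3.731e-05) and 1.38 ± 0.24 in CD172a+ cells (adjusted p = 2.433e-04). Ly75 was higher in both, by 2.42 ± 0.11 or 5.36-fold in CD24+ cells (adjusted p = 1.377e-09) and by 3.64 ± 0.11 or 12.4-fold in CD172a+ cells (adjusted p = 2.706e-11). Wdfy4 fell by 3.13 ± 0.07 (8.75-fold, adjusted p = 2.970e-12) in CD172a+ cells and by 0.38 ± 0.07 (adjusted p = 5.160e-04) in CD24+ cells. The CD24+ value was not called with WT arrays alone (-0.22, adjusted p = 0.08322, within a range of 6.072e-07 to 0.08322 over 25 alternatives) or with the second probe set (-0.36, adjusted p = 0.07125). Naaa fell in both, by 1.08 ± 0.12 in CD24+ cells (adjusted p = 3.206e-06) and 1.62 ± 0.12 in CD172a+ cells (adjusted p = 6.622e-08).

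**Figure D3:**
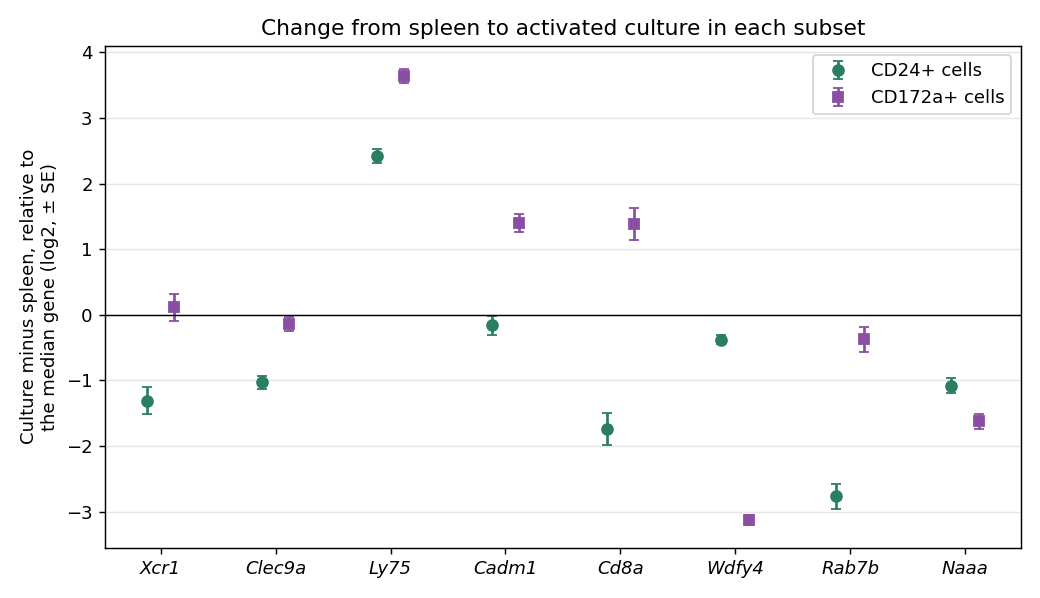
Culture minus spleen for each gene (y axis, log2 relative to the median gene, ± SE) in CD24+ cells (circles) and CD172a+ cells (squares). Ly75 is higher in both subsets, Wdfy4 falls mainly in CD172a+ cells (-3.13 against -0.38), and Cd8a moves in opposite directions.

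The order of the 8 groups by deposited signal differed between genes. Spleen CD24+ cells, then cultured CD24+ cells, then all CD172a+ groups was the order for Xcr1, Clec9a, Rab7b and Naaa. For Cadm1 and Cd8a the cultured CD172a+ groups came above the splenic ones. For Ly75 the 4 cultured groups came first. For Wdfy4 both splenic CD172a+ groups stood above the cultured CD24+ groups, but this turned when each array was centred on its median, where cultured WT CD24+ cells (5.82) came above splenic KO (5.68) and WT (5.55) CD172a+ cells. The order of the Wdfy4 groups other than cultured CD172a+ cells, which were last on each scale, is thus not settled. With 2 exceptions, neighbours in these orders whose arrays overlapped were the WT and KO groups of one subset and tissue. In the Cd8a order, cultured KO CD24+ cells (9.28 ± 0.95, SD, n = 2) overlapped with cultured WT CD172a+ cells (8.73 ± 0.07). In the Xcr1 order, cultured WT CD172a+ cells (6.61 ± 0.07) overlapped with splenic KO CD172a+ cells (6.57 ± 0.12), and the order of its 4 CD172a+ groups changed with the scaling. That of Clec9a did too: when median centred, cultured WT CD172a+ cells (0.589) came above splenic KO (0.286) and WT (0.267) CD172a+ cells. For Cadm1, median centring put cultured WT CD24+ cells (4.569) above splenic WT CD24+ cells (4.431).

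Across the 8 group means Xcr1 and Clec9a had a Pearson r of 0.998, and Ly75 had 0.27 with Xcr1 and -0.46 with Wdfy4. Among 6707 genes whose group means spanned at least 1 log2 unit, those nearest to Xcr1 were Cltrn (0.997) and Sh3pxd2b (0.997), and the same pair came nearest to Clec9a. Cd48 (0.997) and Twf2 (0.996) were nearest to Wdfy4, Zfp318 (0.991) and Gpr33 (0.991) to Ly75, and Itpripl1 (0.995) and AW549877 (0.988) to Cd8a. Bst1 (0.992) and Sdc3 (0.988) were nearest to Cadm1, Fnip2 (0.996) and Lrrc1 (0.994) to Rab7b, and Slc8b1 (0.997) and Adam19 (0.994) to Naaa. These values describe 8 means from shared arrays and carry no test.

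The other genes of the pathway were taken from a list of 45 genes of cross-presentation (phagosome, antigen export, proteasome, peptide transport and MHC class I loading), of which 40 were measured. In spleen 19 were higher and 7 lower in CD24+ cells, with a median of 0.17 against 0.03 for all genes. The highest were Apol7c (2.44), which permeabilizes endosomes, the pore protein gene Mpeg1 (2.36) and the GTPase gene Rab32 (1.89). Cybb (-2.70), the catalytic NADPH oxidase subunit, the lysosome regulator Tfeb (-1.03) and the protease gene Lgmn (-0.90) were lowest. In culture 16 were higher and 4 lower, with a median of 0.07 against -0.03. There the oxidase subunit gene Ncf4 (2.42) led, followed by Rab43 (1.51) and Rac2 (1.25), and Cybb (-1.64), Vcp (-0.36) and Rab14 (-0.27) were lowest. Culture minus spleen, the change of the subset difference was called above 0 for 13 and below 0 for 12. It was highest for Ncf4 (2.47) and lowest for Apol7c (-2.58). These counts follow the sign of the change and not the size of the difference. Cybb is among the 13 (1.06), although its difference shrank from -2.70 to -1.64. Apol7c was higher in culture than in spleen in both subsets, by 1.81 in CD24+ and 4.32 in CD172a+ cells.

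A list of 27 measured cDC1 genes other than the 8 members also differed less in culture. In spleen 23 of the 27 were higher in CD24+ cells (median 3.23 against 0.03 for all genes), led by Gpr141b (5.99), Plpp1 (5.50) and Ifi205 (5.27). In culture 19 were higher and 2 lower (median 0.63 against -0.03), led by the scavenger receptor gene Cd36 (3.84), the lysosomal thioesterase gene Ppt1 (3.48) and the checkpoint receptor gene Havcr2 (2.996). Those lower were the transcription factor genes Nfil3 (-0.95) and Batf3 (-0.73). Culture minus spleen, the change of the subset difference was called below 0 for 21 and above 0 for 4. It was lowest for Gpr141b (-5.78), Ifi205 (-4.65) and Irf8 (-3.87) and highest for Havcr2 (2.80). Irf8, the lineage factor of cDC1, was 4.48 higher in cultured than in splenic CD172a+ cells. Of 17 cDC2 genes, 16 were lower in spleen CD24+ cells and 6 in culture, where 1 was higher. The lists hold the genes of the sort markers, Cd24a among the cDC1 and Sirpa among the cDC2 genes. Sirpa (-3.90 in spleen, -2.64 in culture) is part of these counts through the sort itself. All 16 genes of a DC maturation list were higher in cultured than in splenic CD24+ cells (median 2.28) and 15 of them in CD172a+ cells (median 2.17).

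Partners and relatives of the members formed a list of 38 genes, 35 of them measured. In spleen 8 were higher and 12 lower in CD24+ cells (median -0.04 against 0.03), and in culture 11 were higher and 7 lower (median -0.03 against -0.03). Clec12a, a C-type lectin gene of the Clec9a gene cluster, was higher in CD24+ cells by 1.92 in spleen and 2.50 in culture. Clec7a, of the same cluster, was lower in CD24+ cells in both (-2.25 in spleen, -0.63 in culture). Lyst, a BEACH-domain relative of Wdfy4, had the highest change of the subset difference in the list, culture minus spleen (2.71). That of Wdfy4 was 2.69, from a spleen difference above 0 (0.36). Lyst was not among the list's highest called genes in culture, the lowest of which was Nbeal2 (1.31). Its own spleen difference therefore lay below 0, so the like change is not a like pattern. Nbeal2 (1.31 in culture) and Wdfy3 (1.13 in spleen), further relatives, were higher in CD24+ cells. Asah1, the acid ceramidase gene related to Naaa, was higher by 1.85 in culture. Cadm3, a relative of Cadm1, went the other way in spleen (-2.65), as did Cd209a (-2.22). Nectin2 was the lowest of the list in culture (-0.77).

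Loss of Ciita was not accompanied by a called difference in any member. In each of the 4 comparisons of KO with WT 0 of 8 were called, where 0.0602% of genes (12) were called in spleen CD24+, 0.0802% (16) in spleen CD172a+, 0.0953% (19) in culture CD24+ and 0.0602% (12) in culture CD172a+ cells. At an unadjusted p under 0.05 the counts were 0, 1, 2 and 3 of 8, in the same order. The firmest was Clec9a in cultured CD172a+ cells, which read 7.13 and 6.72 in KO against 7.57 and 7.49 in WT without overlap, a difference of -0.60 ± 0.15 (adjusted p = 0.3945, limma). Wdfy4 in the same cells was -0.34 ± 0.10 (adjusted p = 0.5558), and Rab7b in cultured CD24+ cells was -0.68 ± 0.27 (adjusted p = 0.6602, with a 95% interval of -1.27 to -0.09). With 2 arrays a group the intervals still allow sizeable differences: that of Xcr1 in spleen CD24+ cells ran from -0.46 to 0.80, and that of Cd8a in cultured CD172a+ cells from -1.30 to 0.21. Among the partners and relatives 1 gene was called for genotype, Clec7a (Dectin-1), a C-type lectin gene of the Clec9a cluster, in cultured CD24+ cells. It read 9.66 and 9.84 in KO against 8.82 and 8.73 in WT, without overlap, a difference of 0.97 ± 0.14 (adjusted p = 0.0156). The call was lost in 6 of 25 alternatives, with adjusted p from 0.003532 to 0.3238 over all of them. These 6 were quantile normalization (0.84), the culture arrays fitted alone, omission of the first WT (1.02), second WT (0.93) or second KO (0.88) CD24+ array, and omission of both arrays of the second KO mouse.

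**Figure D4:**
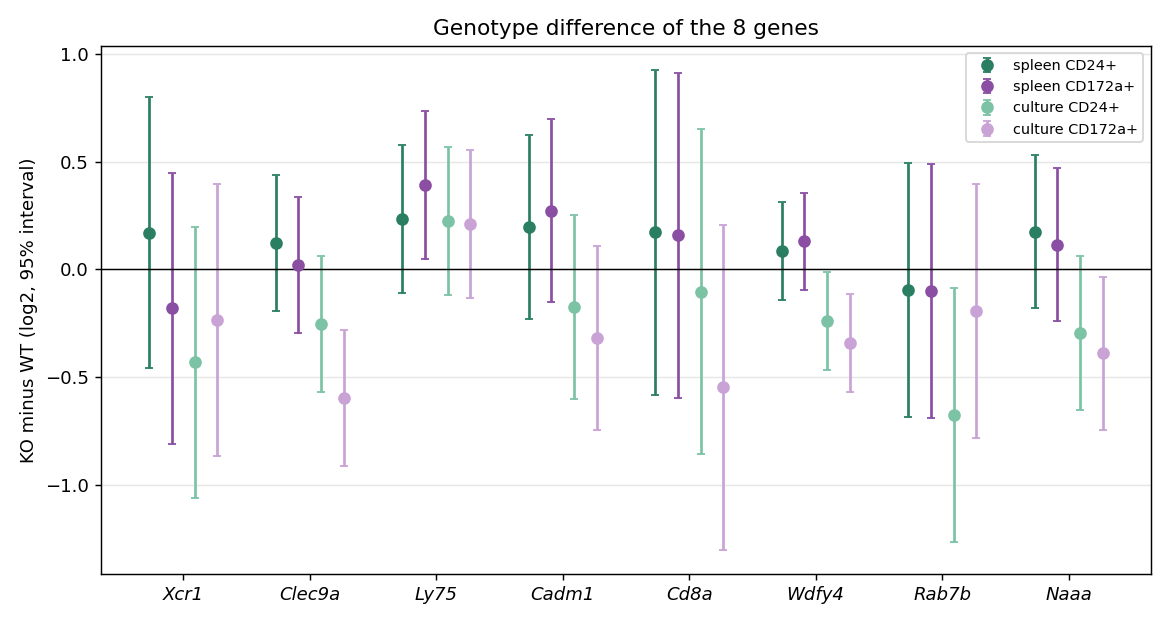
KO minus WT for each gene (y axis, log2, with 95% intervals from limma) in the 4 combinations of tissue and subset, 2 arrays a genotype. Most intervals include 0, and no difference passed the adjusted threshold; Clec9a in cultured CD172a+ cells lies at -0.60.

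When the CD24+ array of the second KO mouse was the only KO array left for cultured CD24+ cells, Xcr1 (-1.06, adjusted p = 0.003532), Rab7b (-1.12, adjusted p = 0.01883) and Naaa (-0.61, adjusted p = 0.01539) were called lower in KO, with 1269 genes called in all. The lone array was then assumed to vary like the other groups. Without both arrays of the mouse, an alternative chosen after its values were seen, all 8 members were called in both tissues. The culture differences were then 4.19 for Xcr1, 3.94 for Clec9a, 0.50 for Ly75, 2.33 for Cadm1, 1.01 for Cd8a (adjusted p = 5.772e-05), 3.04 for Wdfy4, 3.03 for Rab7b and 4.02 for Naaa. The change of Naaa from spleen was 0.61 (adjusted p = 0.002136) and that of Cd8a -3.05.

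Some markers of other cells were called between the subsets in spleen. Over all genes, 15.6% were called higher and 13.4% lower in CD24+ cells there. Of 9 neutrophil genes, 3 were higher in spleen CD24+ cells, led by Ngp (2.13), and 1 was lower, Mmp8 (-0.28). The mean of the 9 reached 8.62 on 1 KO array where the other spleen CD24+ arrays lay between 6.45 and 7.30. Of 11 macrophage genes, 7 were lower in spleen CD24+ cells, led by Adgre1 (-4.14), and 1 was higher, Hmox1 (0.99). Of 7 NK cell genes 4 were higher and 1 lower, of 6 B cell genes 1 was higher and 3 lower, and of 4 erythroid genes 1 was higher. Between the cultured subsets 0 genes of the NK cell, B cell, neutrophil and erythroid lists were called. Of the macrophage genes 1 was higher and 1 lower in cultured CD24+ cells. No single omission of an array ended a spleen call of a member.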

How the data were processed

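RNA of sorted mouse DCs was measured on 16 arrays in 8 groups of 2. Per the labels' protocols the RNA was purified (EZNA MicroElute), freed of DNA (TURBO) and amplified (Ovation Pico WTA). The authors deposited log2 signals per probe set, whose normalization and summarization are not given in the sources used here. That they are log2 follows from their range (3.06 to 14.55). Array medians differed between spleen and culture and hardly within either.

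Of 30177 probe sets, 21789 had 1 gene symbol (21698 through Entrez IDs, from GEO's platform annotation and RefSeq), 1621 several and 6767 none. A gene was represented by its probe set with the highest mean, which left 19938 genes. Promoter sequences are RefSeq's on GRCm38.p6. limma 3.58.1 in R 4.3.3 fitted the mean of each group, with 8 residual and 3.95 prior degrees of freedom, and tested subset, tissue, genotype and the change of the subset difference. Every p was 2-sided, with Benjamini-Hochberg adjustment over 19938 genes and a threshold of 0.05. The fit was also run on simulated data. These had independent arrays and few changed genes, unlike the data here, so they do not show how well the fit does here. The fit did not use that each mouse gave both subsets: the numbers in the labels name the mouse, so a mouse block was an alternative. The correlation over genes of a mouse's 2 group-centred arrays was -0.096 and 0.202 in spleen WT and KO and 0.205 and 0.393 in culture. WT and KO mice were different animals. The number of arrays limits the precision.

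The members and gene lists were chosen with earlier results of these data known. Named genes were the 8 members, the 2 genes nearest to each member in group means, and up to 3 called genes per list and direction with the largest differences. Alternatives were other normalizations, probe-set rules, filters, blocks, single genotypes or tissues, and leaving out each array.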

Additional observations from a re-analysis of the deposited data

Results flagged for a closer look

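A change of the subset difference (CD24+ minus CD172a+) between spleen and culture was called for all 8 genes, by limma's test of the change itself over 16 arrays. Over all genes 28.2% were called in that test. On the log2 scale, culture minus spleen, the change was -1.48 for Xcr1, -0.95 for Clec9a, -1.28 for Ly75 and -1.62 for Cadm1. It was -3.18 for Cd8a and -2.45 for Rab7b, and 2.69 for Wdfy4 and 0.48 for Naaa. The Naaa value was the one that lost its call when single arrays were left out, and it was -0.021 after quantile normalization (adjusted p = 0.9455, limma). The Xcr1 value was not called with WT arrays alone (adjusted p = 0.06703, limma). Groups of 2 arrays are too small for a search for outlying arrays within a group.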

How the results depend on the processing

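Every member kept its direction and its call in the spleen subset difference under all alternatives, and in culture all but Cd8a did. The second Wdfy4 probe set was not called in spleen (0.33). Over the members' values under all alternatives, 1806 kept direction and side of the threshold, 24 lost a call, 9 gained one and 1 reversed. With a mouse replicate block no member's call changed: Cd8a in culture had an adjusted p of 6.338e-04 and the change of Naaa 0.02995, and 6101, 5258 and 5939 genes were called for spleen, culture and their difference. A block on the replicate number, which pairs no animals across genotypes, called 9, 18, 16 and 12 genes for genotype. The change of Naaa reversed under quantile normalization (-0.021). Counts over all genes moved by more than 1.5 times where fewer samples or other feature sets entered. WT arrays alone called 3548 genes (all arrays 5793) for the spleen subset difference and 3262 (all arrays 5630) for its change, and KO arrays alone called 2676 (all arrays 4966) for the culture difference and 3361 for its change. For culture minus spleen, leaving out dim genes gave 9310 instead of 14547 in CD24+ and 9514 instead of 14725 in CD172a+ cells, where all probe sets gave 22131. For genotype, all probe sets gave 21 and 25 genes in spleen CD24+ and CD172a+ cells (12 and 16 otherwise), and the culture arrays fitted alone gave 4 and 7 (19 and 12 otherwise). Leaving out 1 array at a time moved these counts to 1 to 35, 13 to 21, 10 to 1269 and 7 to 45, and 11 genes were called in cultured CD24+ cells without both arrays of the second KO mouse. The causes were not tested.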
